A study of Homo sapiens with 2 samples.

Results

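ARHGAP4 and the genes structurally most like it encode F-BAR RhoGAPs, proteins that join a membrane-binding F-BAR domain to a RhoGAP domain. The set was fixed by gene symbol and held 7 genes, ARHGAP4, SRGAP1, SRGAP2, SRGAP3, GMIP, ARHGAP45 and ARHGAP29. All 7 had a named feature on the array, 8 features in all, out of 14812 named genes and 44629 features in the table. RNA had been measured in 2 sublines of MCF-10A, an established human cell line of breast epithelium that does not form tumours. The EGFP-ARHGAP4 line stably expressed ARHGAP4 fused to EGFP, the enhanced green fluorescent protein, and the EGFP vector line stably expressed EGFP alone. Both lines therefore carried EGFP, and 1 Affymetrix whole-transcript array was made of each. The labels do not say whether a line was 1 clone or a pool of cells, or which promoter drove the fusion.

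RhoGAP domains speed the hydrolysis of GTP by small GTPases that organise actin, and so turn these switches off. The F-BAR domain is a curved dimer that binds and shapes membranes, which places the RhoGAP domain at the cell edge or at vesicles. In epithelial cells, proteins of this kind are known for effects on protrusions, adhesion and migration. ARHGAP4 has been described in a complex with the septins SEPTIN2 and SEPTIN9, which polymerise into filaments along actin and at the membrane. The comparison asks how RNA of ARHGAP4 and of its relatives differed between the line with the fusion and the line with EGFP alone.

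Values are log2 expression values, and each difference is the EGFP-ARHGAP4 array minus the EGFP vector array. There were no replicates, so no difference has a p-value or an error between cultures. A gene entered the counts when its value reached 4.02, the median over all genes, in at least 1 array; 7685 genes did, and all 7 F-BAR RhoGAP genes did so in both arrays. Across these 7685 genes the median difference was -0.10, with quartiles of -0.29 and 0.12, so a difference in that range sits with the bulk of the genes. Genes with several features give a second yardstick. The difference between the arrays had a pooled SD of 0.21 among features of 1 gene. Values of different features are not on a common scale, so levels are compared within a gene only, and a sum over a marker list is compared only between the arrays.

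ARHGAP4 was the only member above 0, and its 6 relatives all lay below 0 as deposited, though SRGAP3 changed sign after quantile normalization or centring. A log2 difference of at least 0.5 higher was found for 1 of the 7, ARHGAP4, against 5.15% of all genes. ARHGAP4 is the gene that the line was made to express, and 0 of its 6 relatives were higher by that much. A difference of at least 0.5 lower was found for 1 of the 7, ARHGAP29, against 9.81% of all genes. Of all genes, 61.4% were below 0 as deposited. After loess 50.3% of all genes and 6 of the 6 relatives were below 0, although SRGAP3 was then at -0.0001. After quantile normalization 52.1% of all genes and 5 of the 6 relatives were below 0, and so were 5 of the 6 after centring, which puts the median of all genes at 0. The median of the 6 relatives was -0.24, against -0.10 for all genes past the filter.

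**Figure D1:**
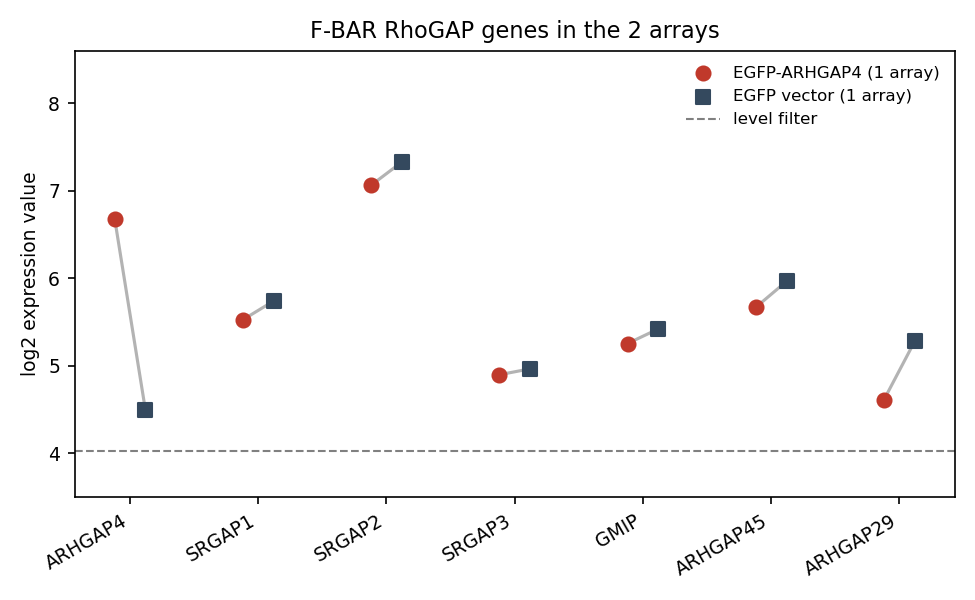
Log2 expression value (vertical axis) of each F-BAR RhoGAP gene in the EGFP-ARHGAP4 array (circles, left of each pair) and the EGFP vector array (squares, right), 1 array each, with the level filter as a dashed line. ARHGAP4 stands at 6.68 in the EGFP-ARHGAP4 array and 4.49 in the EGFP vector array, and ARHGAP29, with the widest gap of the 6 relatives, at 4.61 in the EGFP-ARHGAP4 array and 5.28 in the EGFP vector array.

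ARHGAP4 (Entrez gene 393, chromosome X) encodes a RhoGAP known from blood cells and the nervous system. Its single feature read 6.68 in the EGFP-ARHGAP4 array, against 4.49 in the EGFP vector array. The difference of 2.19, a 4.56-fold higher value, was the 6th highest of the 7685 genes and went the way of the sample labels. The EGFP vector value lay 0.47 above the level filter, so the fold does not rest on a value below it. Which part of the transcript the feature covers is not given, so introduced and endogenous ARHGAP4 RNA cannot be told apart here, nor can more RNA per cell and more expressing cells.

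The 3 srGAP genes encode the Slit-Robo RhoGAPs, which bind Robo receptors and act on GTPases such as CDC42 and RAC1. SRGAP2 (Entrez gene 23380, chromosome 1), whose protein promotes filopodium-like protrusions, read 7.06 in the EGFP-ARHGAP4 array, against 7.33 in the EGFP vector array. Its difference of -0.27 lay within the quartiles of all genes, and 28.2% of genes had a lower difference. SRGAP2 has human-specific partial copies, SRGAP2B, SRGAP2C and SRGAP2D, none of which had a named feature, so the SRGAP2 value may include their RNA. SRGAP3 (Entrez gene 9901, chromosome 3), also known as WRP for its binding to the actin regulator WAVE1, read 4.90 in the EGFP-ARHGAP4 array, against 4.96 in the EGFP vector array. Its difference of -0.07 was nearer to 0 than that of any other member, and it was above 0 after quantile normalization, at 0.0094, and after centring, at 0.033.

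SRGAP1 (Entrez gene 57522, chromosome 12), a GTPase-activating protein for CDC42 in Slit-Robo signalling, was the only member with 2 features, and these disagreed. The brighter feature read 7.09 in the EGFP-ARHGAP4 array, against 7.52 in the EGFP vector array, a difference of -0.43. The dimmer feature read 3.96 in both arrays, identical to the last deposited digit and below the level filter. Such exact identity was found in 3106 features, 6.96% of the table. The mean over both features gave 5.53 in the EGFP-ARHGAP4 array, against 5.74 in the EGFP vector array, a difference of -0.21. The mean is therefore an average of 1 feature that differed and 1 that did not, and with the brighter feature alone SRGAP1 was the second lowest member after ARHGAP29.

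GMIP, ARHGAP45 and ARHGAP29 form the other branch, whose proteins act on RHOA. ARHGAP29 (Entrez gene 9411, chromosome 1), a RHOA GTPase-activating protein that works downstream of the small GTPase RAP1, read 4.61 in the EGFP-ARHGAP4 array, against 5.28 in the EGFP vector array. Its difference of -0.67, 1.59-fold lower, was exceeded downward by 4.03% of all genes. It was the 5th lowest of the 34 RhoGAP genes past the filter. It did not reach 2-fold, which 0.794% of all genes did in that direction. ARHGAP45 (Entrez gene 23526, chromosome 19), known in blood cells as the source of the minor histocompatibility antigen HA-1, read 5.67 in the EGFP-ARHGAP4 array, against 5.96 in the EGFP vector array. Its difference of -0.30 lay just outside the lower quartile of all genes. GMIP (Entrez gene 51291, chromosome 19), which binds the GTPase GEM, read 5.25 in the EGFP-ARHGAP4 array, against 5.42 in the EGFP vector array. Its difference of -0.17 was smaller than the pooled SD between features of 1 gene.

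The order of the differences was thus ARHGAP4, SRGAP3, GMIP, SRGAP1, SRGAP2, ARHGAP45 and ARHGAP29, from highest to lowest. The neighbours in this order from SRGAP3 to ARHGAP45 were each less than 0.21 apart, the pooled SD between features. ARHGAP4 was separated from SRGAP3 by far more than that, and ARHGAP29 from ARHGAP45 by more. Neither gap can be set against variation between cultures. Loess and centring left this order as it was, while SRGAP1 changed place with SRGAP2 by less than 0.01 after quantile normalization and came next to ARHGAP29 with its brighter feature, as the plot of the 6 relatives by setting shows.

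**Figure D2:**
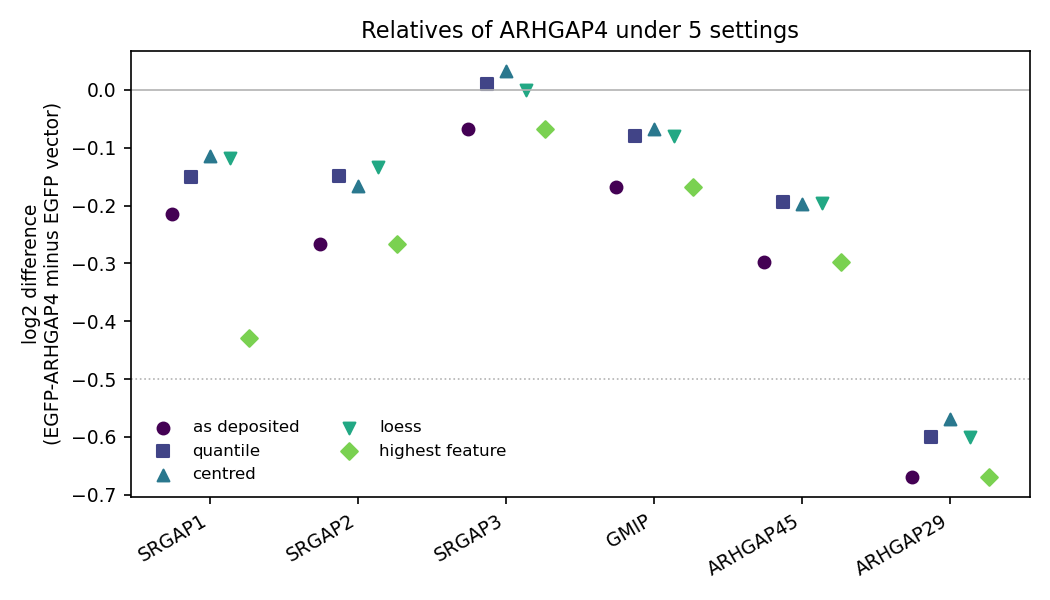
Log2 difference, EGFP-ARHGAP4 minus EGFP vector (vertical axis), of the 6 relatives of ARHGAP4 under 5 settings: values as deposited, after quantile normalization, after centring on the median difference, after removal of a loess curve, and with the feature of highest mean level. ARHGAP29 stays between -0.57 and -0.67, SRGAP1 moves to -0.43 with its brighter feature, and SRGAP3 lies on both sides of 0.

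Other RhoGAP genes give the setting for these values. Of 57 listed RhoGAP genes without an F-BAR domain 44 were measured and 27 passed the filter. Their median was -0.21, against the -0.24 of the 6 F-BAR relatives. It was -0.09 after loess and -0.11 after centring. Of the 27, 21 were below 0, against 61.4% of all genes, and 16 were after either of these scalings, or 17 after quantile normalization. Of the 27, 6 were lower by at least 0.5 as deposited, against 9.81% of all genes, and 1 was higher, against 5.15%. The lower count was 6 after loess or quantile normalization, 5 after centring and 7 with the brightest feature. The higher count was 2 after loess, centring or quantile normalization. All genes that were higher then numbered 560, 608 and 554, in that order, and those lower 497, 447 and 514. Among the 6 lower genes, ARHGAP31 at -0.62 and CHN1 at -0.57 passed the filter only through the EGFP vector array, where they were higher. ARHGAP21, a Golgi and junction RhoGAP encoded on chromosome 10, was the lowest at 4.52 in the EGFP-ARHGAP4 array, against 6.07 in the EGFP vector array. ARHGAP11B at -0.87 and ARHGAP11A at -0.70 are related gene copies whose features may share RNA, and DEPDC1B, linked to mitotic entry, was at -0.73. Without the genes of chromosome 10, where ARHGAP21 and ARHGAP12 lie, 5 of 25 were lower by at least 0.5 and the median was -0.15. The highest after ARHGAP4 was ABR, a GTPase-activating protein for RAC1, at 0.54, named after its value was seen. ARHGAP4, the gene introduced as the fusion, was therefore the highest of the 34 RhoGAP genes, with a gap to the next of more than 1 on the log2 scale.

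F-BAR genes without a RhoGAP domain, which encode membrane-shaping proteins of endocytosis and actin assembly, had a median of -0.15 over the 12 of 16 that passed the filter. Of these, 2 were lower by at least 0.5 as deposited, against 9.81% of all genes, and none was higher, against 5.15%. After quantile normalization, centring or loess, 1 was lower and 1 was higher, FCHO1, which went from 0.47 to 0.57 with centring. Of all 7685 genes, 447 were lower and 608 higher after centring. FER, an F-BAR tyrosine kinase of junctions and adhesion, read 6.15 in the EGFP-ARHGAP4 array, against 7.19 in the EGFP vector array, 2.05-fold lower. That difference of -1.04 became -0.91 after loess. FCHO2, which acts at the start of clathrin-coated pit formation, was at -0.52 and came inside 0.5 after quantile normalization, centring or loess.

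**Figure D3:**
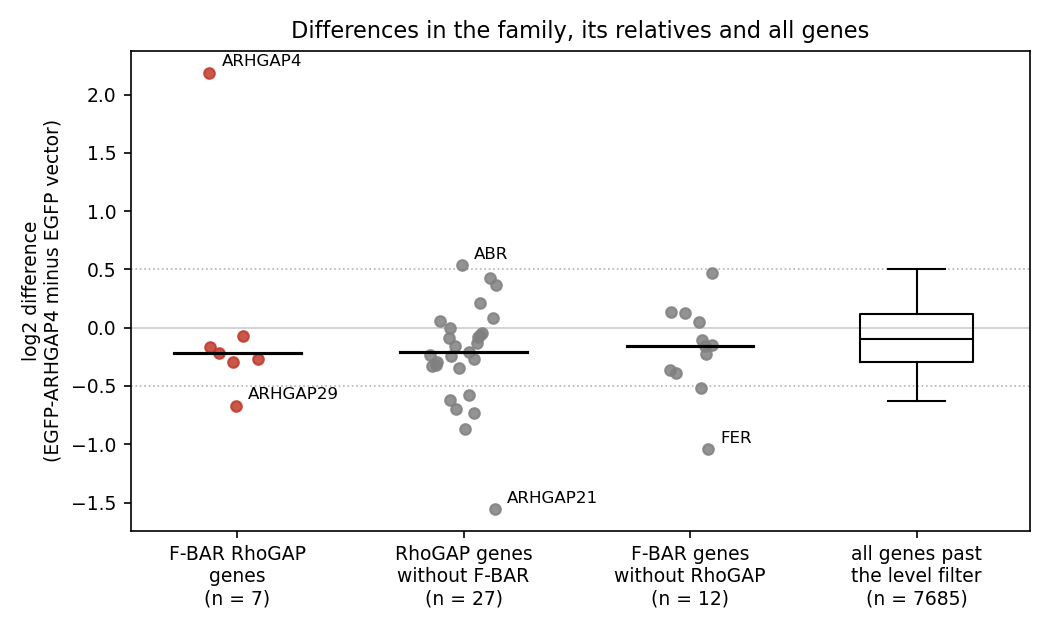
Log2 difference, EGFP-ARHGAP4 minus EGFP vector (vertical axis), for genes past the level filter in 3 lists (points, with the median as a bar) and for all 7685 genes (box at the quartiles, line at the median, whiskers at the 5 and 95 percentiles). ARHGAP4 stands apart at 2.19, while the other F-BAR RhoGAP genes lie between -0.07 and -0.67, among the values of the related lists.

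The 3 RhoGDI genes, whose proteins hold small GTPases in the cytosol, lay between -0.17 and 0.02 as deposited, ARHGDIA among them moving above 0 after loess.

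Ligands and partners of the F-BAR RhoGAPs were sparse on the named part of the array. Of the Slit ligands and Robo receptors, SLIT2 alone passed the filter, at 5.76 in the EGFP-ARHGAP4 array, against 6.35 in the EGFP vector array, a difference of -0.59, or -0.49 after centring. SLIT1 and SLIT3 were below the filter in both arrays, and no Robo gene had a named feature. Of 13 listed binding partners 6 were measured and 3 passed the filter, which are named after their values were seen. FMNL1, a formin bound by SRGAP2, was at 0.38. SEPTIN2 read 7.47 in the EGFP-ARHGAP4 array, against 7.65 in the EGFP vector array, and SEPTIN9 read 8.03 in the EGFP-ARHGAP4 array, against 7.81 in the EGFP vector array. Neither septin of the described ARHGAP4 complex differed by 0.5, a size that 5.15% of all genes reached upward and 9.81% downward. The 2 had opposite signs. SEPTIN9 at 0.22 lay above the upper quartile of all genes, 0.12, and was at 0.35 after loess. SEPTIN2 was at -0.18, or -0.04 after loess.

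Genes next to ARHGAP4 on chromosome X did not share the size of its difference. Over the 5 nearest measured genes past the filter on each side, in the gene order of GRCh38.p14, differences lay between -0.33 and 0.71 with a median of 0.15. On 1 side the nearest were IDH3G at -0.05 and SRPK3 at 0.24, and on the other HCFC1 at -0.33 and TMEM187 at 0.17. DNASE1L1 at 0.71 and BGN at 0.60, named after their values were seen, were the only ones past 0.5. Thus 2 of these 10 neighbours were higher by that much, against 5.15% of all genes. Below 0 were 2 of the 10, against 60.1% of the 218 chromosome X genes past the filter and 61.4% of all genes. No neighbour came near the 2.19 of ARHGAP4. Around ARHGAP29 the 10 neighbours had a median of -0.25 and lay between -0.53 and 0.45, with ARHGAP29 lower than each of them. The nearest were MIR760 at -0.01 and BCAR3 at 0.28 on 1 side, and ALG14 at -0.41 and PTBP2 at -0.47 on the other. The 10 neighbours of ARHGAP45 had a median of 0.01 and those of GMIP a median of -0.37, although both genes lie on chromosome 19. The values of SRGAP1, SRGAP2, SRGAP3, GMIP and ARHGAP45 lay within the range of their own neighbours.

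**Figure D4:**
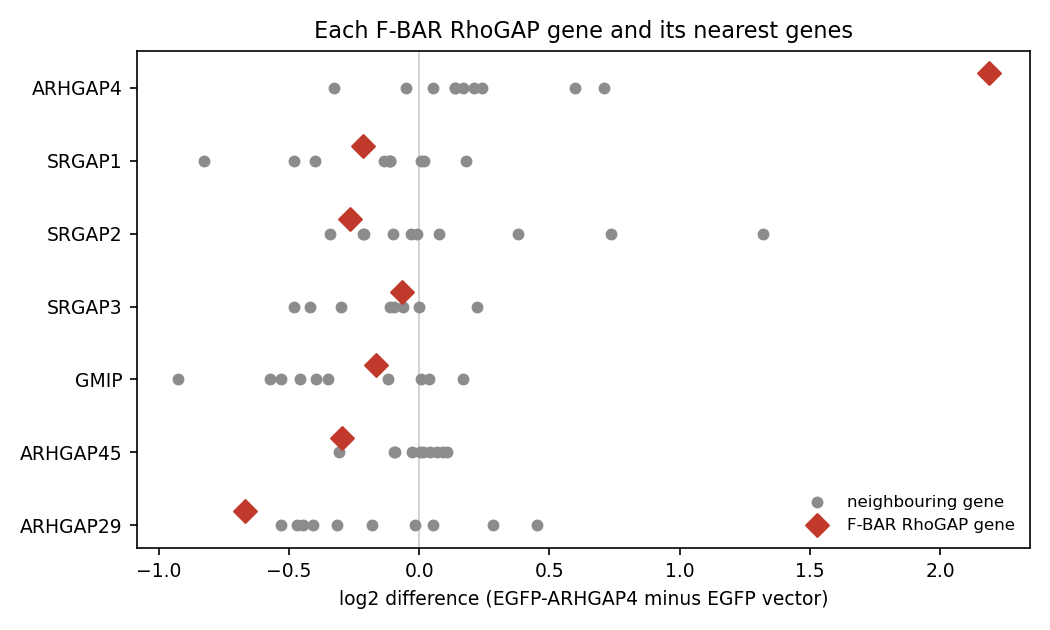
Log2 difference, EGFP-ARHGAP4 minus EGFP vector (horizontal axis), of each F-BAR RhoGAP gene (diamond) and of its nearest measured genes past the level filter (grey points, up to 5 on each side along the chromosome). ARHGAP4 lies at 2.19 where its neighbours end at 0.71, and ARHGAP29 lies at -0.67 where its neighbours end at -0.53.

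Symbols of long intergenic non-coding RNAs, small RNAs, olfactory receptors and LOC genes were set aside before the search for genes like ARHGAP4. The genes most like ARHGAP4 were then taken as those past the filter in both arrays with the nearest log2 difference, a likeness that rests on 2 arrays. They were LAMP3, a lysosomal membrane protein gene, at 2.27, the stress cytokine gene GDF15 at 2.06, the chemokine gene CCL20 at 2.05, the blood cell lysosomal gene LAPTM5 at 2.05 and the p53 target TP53INP1 at 1.79. Their distances from ARHGAP4 on that scale were between 0.08 and 0.40.

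The epithelial label was checked against 18 markers, of which 10 were measured and 9 passed the filter, among them the basal keratin gene KRT5 at 8.34 in the EGFP-ARHGAP4 array and 8.33 in the EGFP vector array. Of the 9, 3 were higher by at least 0.5, against 5.15% of all genes, and 1 was lower, against 9.81%. The higher ones were the adhesion gene EPCAM at 1.20, the tight junction gene CLDN1 at 0.97 and the desmosomal gene DSG3 at 0.71. The lower one was the basal keratin gene KRT14 at -2.25. The other 5 lay within 0.5 of 0. TP63 and CDH1 had no named feature. No fibroblast marker of 3 measured and no adipocyte marker of 3 measured passed the filter. Of 4 endothelial markers 2 passed, CLDN5 at 0.02 and KDR, which read 5.63 in the EGFP-ARHGAP4 array and 3.36 in the EGFP vector array and so passed only through the array where it was high. Of 5 immune markers 4 passed, with LAPTM5 at 2.05, the actin bundler LCP1 at 1.67, CD68 at 0.48 and CD14 at -0.35, while CD53 read 2.04 in both arrays and PTPRC and CD3E had no named feature. Of the 4, 2 were higher by at least 0.5, against 5.15% of all genes, and 0 were lower, against 9.81%. The higher count was 3 after quantile normalization, centring or loess, with CD68 at 0.58, 0.58 and 0.61. All genes that were higher then numbered 554, 608 and 560. The summed linear level of the 5 immune markers, which the brightest features dominate, was 9.03 on the log2 scale in the EGFP-ARHGAP4 array and 8.20 in the EGFP vector array. That of the 4 endothelial markers was 6.31 in the EGFP-ARHGAP4 array and 5.31 in the EGFP vector array, with KDR alone past 0.5. VWF at 0.11 and EMCN at -0.31 were below the filter in both arrays. The sum of the 10 epithelial markers was 11.96 in the EGFP-ARHGAP4 array and 11.93 in the EGFP vector array. In the same order, that of the 3 fibroblast markers was 4.49 and 4.52, and that of the 3 adipocyte markers 4.17 and 4.41. ARHGAP4 and ARHGAP45 are both known from blood cells, and ARHGAP45 was at -0.30. The part of these immune and endothelial markers in the ARHGAP4 difference was not tested.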

How the data were processed

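Log2 expression values of 44629 features on 2 arrays, 1 for each line, were taken as deposited by the authors; the log2 scale was read from the values, and software, normalization and genome build were not stated in the labels. The columns had nearly equal medians, so differences are relative to the bulk of features. Per the labels' protocols, total RNA was amplified with a whole-transcript kit and labelled with biotin. The number of arrays limits the precision.

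Of the features, 15835 carried 1 symbol in the supplied platform annotation of 2020, none several and 28794 none; all 15835 matched a RefSeq GRCh38.p14 gene by Entrez identifier. No coordinates are printed. Features of 1 gene were averaged. The members and lists were chosen with earlier results of these data known. Of the lists drawn up, 1 whole list and 1 marker gene were left out and are not reported here; other markers are given by counts, with those past 0.5 named. By the rule, the text names every member, up to 4 members of each related list with an absolute difference of at least 0.5, the 5 genes nearest to ARHGAP4 in difference, and the 2 nearest neighbours on each side of ARHGAP4 and ARHGAP29. Named outside that rule were ARHGAP31, CHN1, ABR, ARHGAP12, FCHO1, ARHGDIA, FMNL1, SEPTIN2, SEPTIN9, DNASE1L1 and BGN. With 1 array per group no test was run. Alternatives were quantile normalization, centring, loess (span 0.3), the brightest feature, other filters and thresholds, and leaving out chromosome 10. Calculations were tested on simulated data, using statsmodels 0.14.6, numpy 2.4.6 and pandas 2.3.3 under Python 3.11.15, and figures with matplotlib 3.10.9.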

Additional observations from a re-analysis of the deposited data

How the results depend on the processing

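The ARHGAP4 difference lay between 2.19 and 2.29 over all settings run, and ARHGAP29 between -0.57 and -0.67. Each has 1 feature, so the brightest feature, other filters and leaving out chromosome 10 could not move these values. Centring moves every gene by the same amount. After quantile normalization and loess, in that order, ARHGAP4 was at 2.27 and 2.28, and ARHGAP29 at -0.60 and -0.60. SRGAP3 was at 0.0094 after quantile normalization and 0.033 after centring, which subtracts the median of -0.10 by construction. The count of F-BAR RhoGAP genes lower by 0.5 was 0 when the filter was set at the 0.75 quantile, which ARHGAP29 did not pass, and 0 at 2-fold. The 396 higher and 754 lower genes became 608 and 447 after centring, 185 and 408 with the 0.75 quantile filter, and 77 and 61 at 2-fold. Higher genes numbered 629 without a filter, and lower genes 497 after loess and 495 at 1.5-fold. The share of called genes that were higher was 34.4% as deposited, 51.9% after quantile normalization, 57.6% after centring and 53.0% after loess. The median difference of the RhoGDI genes changed sign after loess (0.010), as ARHGDIA, the median gene, moved from -0.12. That of the binding partners changed sign without a filter (-0.031), where it was taken over the 6 measured genes and not the 3 past the filter. Leaving out chromosome 10 was chosen after seeing the data. No paired analysis was possible because each group had 1 array.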
